A study of Mus musculus with 32 samples.

Results

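Single-cell RNA profiles of mouse embryonic cortex were compared at E14.5 between embryos with 1 working copy of Chd8 (Chd8+/-, called het here) and wild type (WT) embryos. The comparison rests on the 8 libraries titled E14.5, 4 het and 4 WT, out of 32 libraries of the series. In each library the UMIs (unique molecular identifiers, 1 per captured RNA molecule) of all barcodes with at least 1000 UMIs and 500 genes were summed, and the sums were compared across all genes. All embryos were C57BL/6J, the tissue was dorsal telencephalon without its medial part, and cells were captured with 10x Genomics 3′ v2 chemistry. Each het embryo was matched to a WT embryo of the same litter and sex, which gave 4 pairs: 2 of males (M1, M2) and 2 of females (F1, F2). Embryos were processed individually. How the mutant allele was made is not given in the sources used here.

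Chd8 encodes a chromodomain helicase, an enzyme that uses ATP to move nucleosomes, and loss of 1 copy is a well-known cause of autism with large head size in people. At mid-neurogenesis the cortical wall is layered by maturity. Radial glia divide at the ventricle, intermediate progenitors that express Eomes divide above them, and excitatory neurons collect outside. Interneurons enter from the ganglionic eminences below, while vessels with their pericytes, microglia and the meninges come from other lineages.

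Filtering kept 32087 of 32267 barcodes, 16019 from WT and 16068 from het libraries, with 260192700 UMIs in all. Kept UMIs per library ran from 21607743 in het F1 to 38741494 in WT M1, and the median per barcode ran from 6163 to 8785 in WT and from 6049 to 8704 in het libraries. Any 2 libraries shared between 13 and 31 barcodes, at most 1.03% of the smaller. Markers of blood cells varied between pairs more than within them: the 10 erythroid genes together made up 886 CPM (UMIs scaled to a common library total) in WT F2 and 1329 CPM in het F2, against 7539 and 7326 CPM in WT F1 and het F1. Cells were clustered with no correction for pairs, and clusters were named from marker genes as radial glia-like (8458 cells), intermediate progenitor-like (5549), excitatory neuron-like (16397), interneuron-like (1224), Cajal-Retzius-like (207), erythroid-like (71) and microglia-like (30). A vascular cluster of 151 cells, led by Igfbp7, Cldn5 and Rgs5, carried markers of endothelial cells and pericytes side by side and stayed unnamed. Radial glia-like cells include cluster 0 and cluster 1, whose median UMI counts were 2.10 and 0.432 times those of their libraries. Excitatory neuron-like clusters were unevenly spread over the pairs. Cluster 11 held 657, 553, 0 and 26 cells in WT M1, M2, F1 and F2, and 700, 511, 0 and 21 in the het libraries. Cluster 15 held 7, 20, 469 and 959 cells in the WT libraries and 15, 66, 356 and 928 in the het libraries. The names are rebuilt here and no doublet caller was run, so some cells in each class may be doublets.

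Chd8 itself was lower in the het member of every pair. WT M1, M2, F1 and F2 stood at 44.0, 40.4, 51.3 and 41.3 CPM, and the het libraries in the same order at 34.1, 37.6, 45.4 and 35.0 CPM. The groups overlapped, because het F1 lay above 3 of the WT libraries, but each het library lay at between 0.774 and 0.932 times its WT partner. The fitted difference, as for all genes given as log2 of het relative to WT, was -0.23 (SE 0.05) and did not pass (adjusted p = 0.305, edgeR's quasi-likelihood test on 14494 genes with the pair as a block). The gene lies on chromosome 14 from 52198151 to 52257780 on the minus strand (GRCm38), and Gm26590 on the opposite strand and Snord8 overlap it. Whether the 3′ reads fall in the altered part of the allele is not stated, so this level checks the genotype labels only in part. Of the 10 CHD family remodellers tested, Chd8 was the member with an unadjusted p under 0.05, and the other 9 had log2 fold changes between -0.17 for Chd5 and 0.11 for Chd1.

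Across all cells, 2 genes changed at an adjusted p under 0.05, 1 higher and 1 lower, which is 0.0138% of the 14494 genes tested. Crlf2, the receptor subunit that binds the cytokine TSLP, was 1.68-fold higher in het cortex. Col3a1, a chain of the fibrillar collagen of connective tissue and vessel walls, fell by 2.46 on the log2 scale. At an unadjusted p under 0.05, 713 genes were higher (4.92%) and 759 lower (5.24%), 1472 in all, against 792 of 15997 genes in a fit of all 32 libraries. The count depended on the tool and the pairs: DESeq2 with the same block called 20 genes, 13 higher and 7 lower, and edgeR called 11 without M1 (2 higher, 9 lower), 4 without M2, 7 without F1 and 5 without F2, Crlf2 and Col3a1 among them each time. Without the pair as a block neither gene was called (adjusted p = 1 for both), with nearly the same estimates, 0.74 for Crlf2 and -2.48 for Col3a1. The median log2 fold change over all genes was -0.0026. Genes higher in the het member of all 4 pairs made up 11.2% of those tested, and genes lower in all 4 made up 8.18%.

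Crlf2 (chromosome 5 from 109554709 to 109558993 on the minus strand) read 10.4, 9.59, 11.8 and 14.3 CPM in the WT libraries of pairs M1, M2, F1 and F2. Their het partners read 18.4, 17.1, 19.4 and 22.5 CPM. The lowest het library lay above the highest WT library, and each het library lay at between 1.57 and 1.78 times its partner. The fit gave a log2 fold change of 0.75 (SE 0.07, adjusted p = 0.00375, edgeR's quasi-likelihood test). Counts behind these values ran from 267 to 793 UMIs per library. The gene was called without each pair in turn, with log2 fold changes of 0.72 to 0.78, and in the neural classes alone (0.74, adjusted p = 0.00246). Of the other genes of this signalling route that were tested, which include the kinases Jak1 and Jak2 and the SOCS inhibitors, none was called, and none had an unadjusted p under 0.05. Among them the feedback inhibitor Socs3 had a log2 fold change of 0.21 (SE 0.10). The list had 15 genes, of which 11 were tested, with a median log2 fold change of -0.0018.

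**Figure D1:**
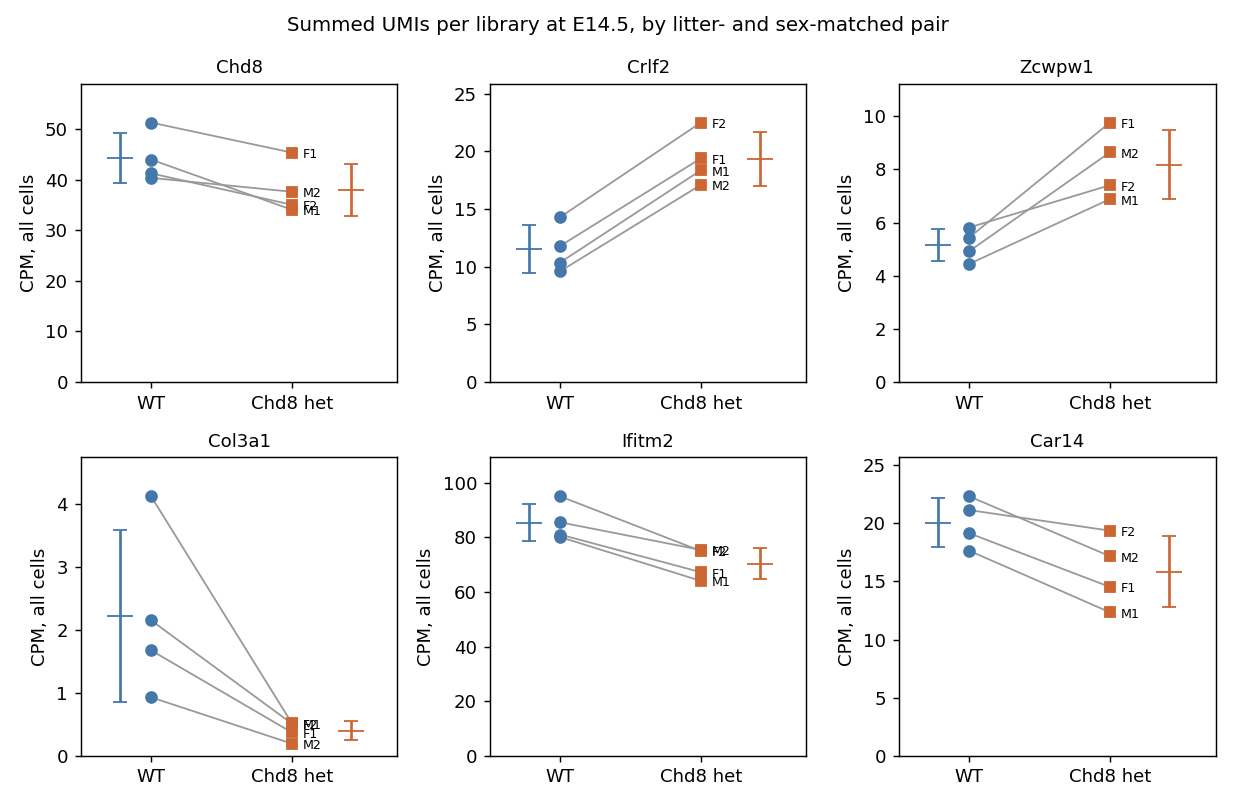
Level of 6 genes in CPM (y axis, from 0) in the 4 WT libraries (circles) and 4 het libraries (squares) at E14.5, all cells summed; grey lines join a pair, and bars show the mean and SD of each group. Crlf2 lies between 9.59 and 14.3 CPM in WT and between 17.1 and 22.5 CPM in het libraries, Col3a1 is below 0.52 CPM in each het library, and Chd8 is lower in het in 4 of 4 pairs.

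Col3a1 (chromosome 1 from 45311538 to 45349706 on the plus strand, overlapped by the predicted gene Gm47302) was scarce in every library. It read 4.13, 0.930, 1.68 and 2.15 CPM in WT M1, M2, F1 and F2, against 0.517, 0.191, 0.370 and 0.511 CPM in the het libraries. The groups did not overlap, although WT M1 held 160 of the 305 WT UMIs. The log2 fold change was -2.46 (SE 0.22, adjusted p = 0.00375, edgeR's quasi-likelihood test). Of all 357 Col3a1 UMIs, 339 (95.0%) lay in the 151 cells of the vascular cluster, so few cells carry this result. Within that cluster 39 of 82 WT cells and 22 of 69 het cells held a Col3a1 UMI. Single cells held 51 of the 160 UMIs of WT M1 and 50 of the 76 UMIs of WT F2, and the richest het cell held 9. Het F2 held 18 UMIs in all. The cluster had 23, 21, 17 and 21 cells in the WT libraries and 19, 9, 18 and 23 in the het libraries. With neural classes alone, Col3a1 was too low to be tested. In summed counts, fewer cells of a type and less RNA per cell cannot be told apart. At clustering resolution 2 the vascular cells parted into a pericyte-like cluster with Col3a1 among its leading genes, 53 WT and 36 het cells, and an endothelial-like cluster of 30 WT and 35 het cells. Pericyte-like cells numbered 16, 14, 7 and 16 in the WT and 10, 5, 8 and 13 in the het libraries.

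Other genes of mesenchymal, mural and myeloid cells lay on the same side. Of 8 markers of meningeal fibroblasts, 5 were tested. Besides Col3a1, Col1a1 had a log2 fold change of -2.37 (SE 0.40) and Col1a2 of -2.07 (SE 0.39), lower in all 4 pairs with adjusted p of 0.168 and 0.192. Single cells carry much of this: 1 cell held 50 of the 53 Col1a1 UMIs of WT F2 and 1 held 70 of its 83 Col1a2 UMIs. Some pairs were near ties, with 4 Col1a1 UMIs in both members of M2 and 11 against 10 Col1a2 UMIs in F1. The summed level of the 8 ran from 3.99 to 15.1 CPM in WT and from 1.89 to 4.24 CPM in het libraries, lower in het in 4 of 4 pairs. All 8 pericyte markers had negative log2 fold changes (median -0.70), and 7 had an unadjusted p under 0.05, against 5.24% of all genes. Markers of 1 cell type share the same few cells, so their count is not a count of independent results. The one with the lowest p, Ndufa4l2, read 8.41, 9.18, 6.09 and 7.83 CPM in WT and 3.59, 4.24, 5.97 and 4.43 CPM in het libraries, groups that did not overlap, and its log2 fold change of -0.84 (SE 0.16) did not pass (adjusted p = 0.192). Summed pericyte markers ran from 38.8 to 57.1 CPM in WT and from 20.9 to 41.8 CPM in het libraries, and were higher in het in the F1 pair. None of the markers passed other than Col3a1.

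Microglia are the resident phagocytes of the brain and are few at this age. All 10 microglial markers had negative log2 fold changes, 6 with an unadjusted p under 0.05 (5.24% of all genes were lower at that threshold) and none called, and the median was -0.77. Cx3cr1, the fractalkine receptor, had the lowest p, with a mean of 1.36 ± 0.63 CPM in WT and 0.496 ± 0.06 CPM in het libraries (SD, n = 4 each) and a log2 fold change of -1.43 (SE 0.25, adjusted p = 0.168, edgeR). The summed level of the list ran from 12.7 to 49.5 CPM in WT and from 8.56 to 23.1 CPM in het libraries, and was higher in het in the M1 pair. These sums rest on 17 microglia-like cells in WT and 13 in het libraries. They numbered 1, 2, 7 and 7 in WT M1, M2, F1 and F2, and 5, 1, 2 and 5 in the het libraries. The 10 markers are read from the same few cells, so their count is not 10 independent results. Of 9 endothelial markers 7 had positive log2 fold changes, none had an unadjusted p under 0.05, and the median was 0.27. Their summed level was nevertheless lower in het in 3 of 4 pairs, and in F2 it was 19.9 CPM in WT and 45.4 CPM in het, so that the group means were 47.4 and 47.8 CPM.

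**Figure D2:**
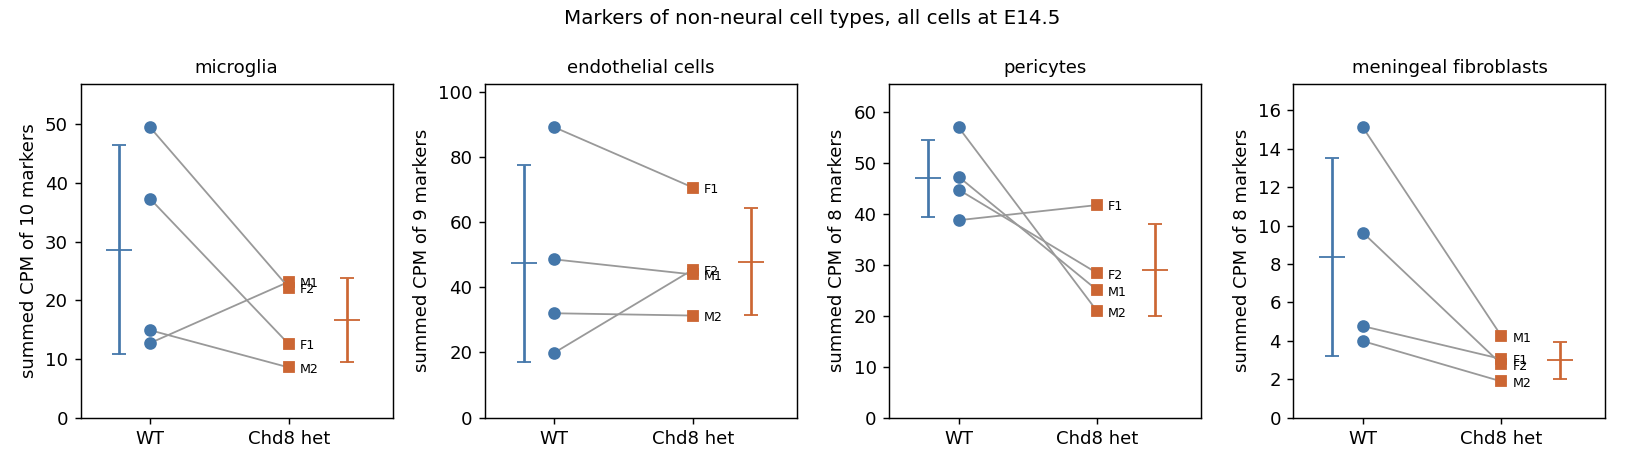
Summed CPM of the markers of 4 non-neural cell types (y axes, from 0) in WT (circles) and het libraries (squares), all cells; grey lines join a pair, and bars show the mean and SD. Meningeal fibroblast markers are lower in het in 4 of 4 pairs and pericyte, microglial and endothelial markers each in 3 of 4. Endothelial markers range from 19.9 to 89.1 CPM in WT and from 31.3 to 70.6 CPM in het libraries.

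Zcwpw1, Car14 and Gsta4 were followed in every case, and none passed across all cells. Zcwpw1 reads methylated histone H3 and is known for the repair of meiotic DNA breaks. It read 4.44, 4.92, 5.43 and 5.81 CPM in WT and 6.88, 8.64, 9.77 and 7.41 CPM in het libraries, so that the groups did not overlap. Its log2 fold change was 0.64 (SE 0.10, adjusted p = 0.114, edgeR), and DESeq2 with the same block gave 0.64 (adjusted p = 0.0396). Without the F2 pair it passed (0.75, adjusted p = 0.0326). The gene overlaps Pilra on the opposite strand. Of 12 genes of meiotic recombination 7 were tested, and none but Zcwpw1 had an unadjusted p under 0.05. Morc3 had -0.15 (SE 0.07) and the strand exchange protein Dmc1 had 0.33 (SE 0.25). Car14, a membrane-bound carbonic anhydrase of progenitors, read 17.7, 22.3, 19.2 and 21.2 CPM in WT and 12.3, 17.2, 14.53 and 19.4 CPM in het libraries, lower in 4 of 4 pairs with overlapping groups (log2 fold change -0.36, SE 0.07, adjusted p = 0.291, edgeR). Gsta4, a glutathione transferase that clears lipid peroxidation products, was lower in 3 of 4 pairs and nearly level in F2 (log2 fold change -0.46, SE 0.13, adjusted p = 0.347, edgeR).

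Below the threshold, the genes of lowest p with at least 5 CPM and the same sign in all pairs give the next layer of values. On the higher side they were BC025920, Krt10, Ccdc167, Tmem106c, Anapc15, Csad, Prss36, Alyref and Xrcc4, with log2 fold changes between 0.27 and 0.48 and adjusted p between 0.0933 and 0.180, and 1 predicted gene. Krt10, a keratin, read 55.5, 58.9, 65.8 and 63.8 CPM in WT and 74.0, 75.2, 77.3 and 81.2 CPM in het libraries. Its groups did not overlap (log2 fold change 0.33, SE 0.05, adjusted p = 0.114, edgeR). Anapc15, a subunit of the anaphase-promoting complex, rested on more UMIs than most, from 1235 to 2409 per library, and stood at 52.6 ± 3.03 CPM in WT and 63.9 ± 4.73 CPM in het libraries (SD, n = 4 each). Csad, which makes the taurine precursor hypotaurine, stood at 18.6 ± 0.85 and 24.4 ± 2.01 CPM, and Xrcc4, a factor of DNA end joining, at 14.98 ± 1.26 and 20.3 ± 1.07 CPM. Krt10, Anapc15, Csad and Xrcc4 each overlap another gene on the opposite strand, as Car14 overlaps Aph1a, and whether counting used strand is not given in the sources used here.

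On the lower side stood Ifitm2, Sfxn1, Ndufa4l2, Alkbh7, Pcp4, Syt4, Tmem141, Zfp37, Nap1l5 and Syn1, with adjusted p from 0.114 to 0.305. Ifitm2, an interferon-induced membrane protein, read 80.1, 85.5, 81.1 and 95.1 CPM in WT and 64.1, 75.4, 67.2 and 75.02 CPM in het libraries. Its groups did not overlap (log2 fold change -0.29, SE 0.05, adjusted p = 0.114, edgeR). Pcp4, a calmodulin regulator of neurons, stood at 187, 181, 176 and 181 CPM in WT and at 156, 163, 129 and 154 CPM in het libraries (log2 fold change -0.29, SE 0.06, adjusted p = 0.243, edgeR). Alkbh7, a mitochondrial dioxygenase, had the tightest groups of these genes, 37.8 ± 0.87 CPM in WT and 31.96 ± 0.24 CPM in het libraries (SD, n = 4 each). Syt4, Nap1l5 and Syn1 are neuronal genes, and their groups overlapped.

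**Figure D3:**
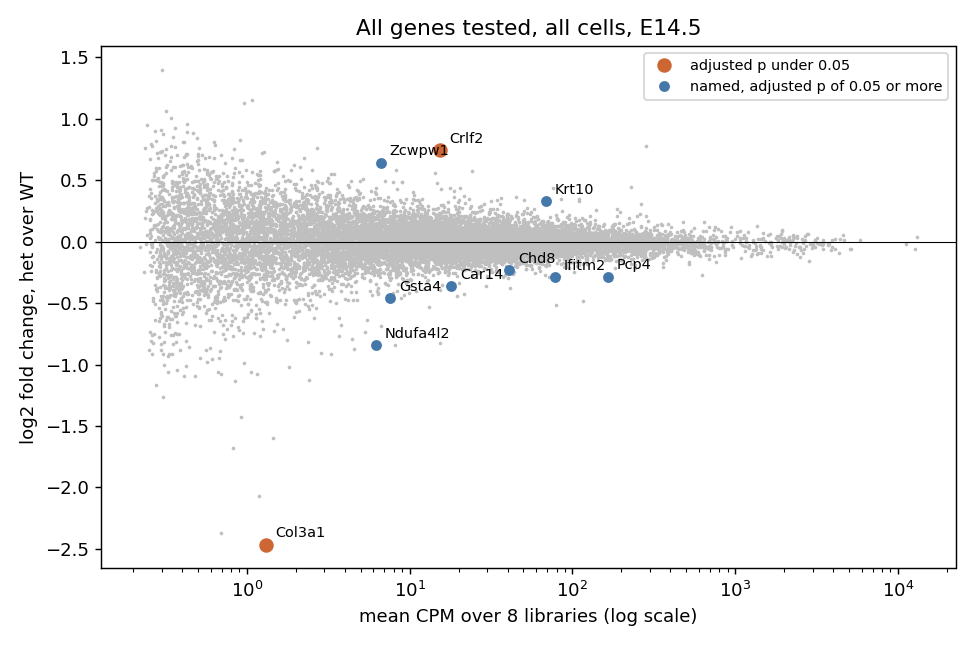
Log2 fold change of het over WT (y axis) against mean CPM over the 8 libraries (x axis, log scale) for the 14494 genes tested in all cells. Grey points are all genes, and Crlf2 (0.75) and Col3a1 (-2.46) are the 2 genes with an adjusted p under 0.05.

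The cell cycle lists had positive medians across all cells. All 30 genes of G1/S and DNA replication had positive log2 fold changes (median 0.13). Of these, 14 had an unadjusted p under 0.05 and 16 were higher in all 4 pairs, against 4.92% and 11.2% of all genes, and none was called. Of 30 genes of G2/M and mitosis, 25 had positive log2 fold changes (median 0.08), 8 higher and 1 lower had an unadjusted p under 0.05, and none was called. Cell makeup is given beside them. Radial glia-like cells made up 26.1 ± 6.32% of WT and 27.9 ± 6.51% of het libraries and were higher in het in 3 of 4 pairs, and intermediate progenitor-like cells made up 16.7 ± 1.63% and 17.7 ± 2.11%, higher in 4 of 4 (SD, n = 4 each). That tally depends on the clustering: at resolution 0.5 this class took 30.1% of WT M1 and 27.7% of het M1, and at resolution 2 it took 23.96% of WT F1 and 23.8% of het F1. Excitatory neuron-like cells made up 51.3 ± 6.29% and 49.8 ± 6.67%, higher in 2 of 4 pairs. None of these differences passed (adjusted p = 0.743 for each of 4 classes, exact two-sided permutation test of 4 against 4, for which the smallest possible unadjusted p is 0.0286). How far shares account for the list was not tested.

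Interneurons, identified by Dlx genes and Lhx6, made up 5.73%, 4.49%, 2.39% and 4.17% of cells in WT M1, M2, F1 and F2 and 5.53%, 2.67%, 1.48% and 3.07% in the het libraries. They were lower in het in 4 of 4 pairs with wide overlap, and the difference did not pass (-1.01 percentage points, unadjusted p = 0.429, exact permutation test). The permutation leaves the pairing out. An exact sign-flip test of the 4 pair differences, chosen after seeing the data, cannot reach the threshold with 4 pairs. For interneurons and for intermediate progenitors its adjusted p over the 4 classes was 0.25. Of 13 interneuron markers, 11 had negative log2 fold changes across all cells, with a median of -0.41, and 5 lower and 1 higher had an unadjusted p under 0.05, against 5.24% and 4.92% of all genes. In all 4 pairs 1 of them was lower, and their summed level was higher in het in 2 of 4 pairs, at 202, 206, 121 and 162 CPM in WT and 213, 161, 138 and 156 CPM in het libraries. Markers that share cells are not independent results. Lhx6 had -0.42 (SE 0.11, adjusted p = 0.306, edgeR). Of 8 Cajal-Retzius markers, 7 had negative log2 fold changes, among them Reln at -0.28 (SE 0.08, adjusted p = 0.347, edgeR), with 113 such cells in WT and 94 in het libraries.

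Further lists of genes covered chromatin, signalling and RNA classes. None of the genes in this paragraph was called, and all counts are at an unadjusted p under 0.05, which 4.92% of all genes passed as higher and 5.24% as lower. Of 44 autism risk genes 1 was higher and 1 lower (2.27% each), with a median log2 fold change of -0.03. Of 27 tested genes of beta-catenin signalling, which the CHD8 protein is known to restrain, 2 were higher and 2 lower (median 0.02). Of 18 tested genes around p53, another known CHD8 partner, 1 was higher and 3 (16.7%) were lower, Sesn2, Ccng1 and Phlda3 (median -0.07). Of 26 BAF complex genes 1 was higher, of 27 polycomb and trithorax genes 2 were lower, and of 21 Notch genes 2 were higher and 1 was lower. Of 24 imprinted genes 7 (29.2%) were lower and none higher, with the lowest p for Rian (-0.27, SE 0.07) and Mest (-0.17, SE 0.05), with a median of -0.04. Of 14 tested interferon response genes 5 (35.7%) were lower, among them Ifitm2 and Ifitm3, and 1 was higher (median -0.30). Of 1194 Ifitm3 UMIs 885 (74.1%) lay in the vascular cluster, and pericyte markers (7 of 8) and microglial markers (6 of 10) were lower at the same threshold. Their part in the values of this list was not tested. Of 81 cytosolic ribosomal protein genes 2 were lower (median 0.00), and of 11 mitochondrially encoded genes none had p under 0.05. Of 115 genes within 1 Mb of Chd8, 13 were tested, none had p under 0.05, and the median log2 fold change was 0.01.

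Summed UMIs of each class were then tested in the same way. Crlf2 was the gene called in each of the 3 classes with any call, and no other gene was called in all 3. Without the pair as a block, no gene was called in any class.

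In radial glia-like cells, 6 of 12121 genes changed (0.0495%), Crlf2 and Mef2c higher and Mt1, Mt2, Ifitm2 and Ifitm3 lower. Crlf2 read 13.5, 11.98, 13.9 and 15.7 CPM in WT and 20.8, 19.5, 20.8 and 23.3 CPM in het libraries (log2 fold change 0.61, SE 0.09, adjusted p = 0.0179, edgeR). The groups did not overlap. Without the M2 pair its adjusted p was 0.153. DESeq2 called none of the 12121 genes (Crlf2 adjusted p = 0.49). At an unadjusted p under 0.05, 585 genes were higher and 622 lower by edgeR.

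Metallothioneins bind zinc and copper and are switched on by metals and glucocorticoids. Mt1 stood at 316 CPM in radial glia-like, 45.5 in intermediate progenitor-like and 11.1 in excitatory neuron-like cells. It stood at 1036 CPM from 274 UMIs in microglia-like cells and at 298 CPM in erythroid-like cells. Across all cells neither Mt1 (-0.48, SE 0.12) nor Mt2 (-0.52, SE 0.12) passed (adjusted p = 0.305 for both, edgeR). In the M2 pair both were higher in het across all cells, at 1.07 and 1.06 times WT, and also in excitatory neuron-like cells. Mt1 and Mt2 lie side by side on chromosome 8 on the plus strand, Mt1 from 94179082 to 94180327 and Mt2 from 94172664 to 94173568, overlapped by the predicted gene Gm45774. These positions are from GENCODE, and RefSeq places the start of Mt1 a little later and that of Mt2 earlier. The sequences here are the 250 bases before the start of each gene in RefSeq (GRCm38.p6, plus strand), chr8:94178839-94179088 for Mt1 and chr8:94172368-94172617 for Mt2. They are shown because both genes were called lower in radial glia-like and intermediate progenitor-like cells. Capitals mark matches on either strand to the core of the metal response element, TGCACNC or TGCGCNC.
Mt1: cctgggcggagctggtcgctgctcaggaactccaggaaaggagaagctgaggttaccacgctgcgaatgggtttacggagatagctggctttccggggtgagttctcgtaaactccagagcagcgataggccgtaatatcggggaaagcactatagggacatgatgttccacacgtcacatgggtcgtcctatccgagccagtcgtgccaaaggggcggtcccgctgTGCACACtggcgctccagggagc
Mt2: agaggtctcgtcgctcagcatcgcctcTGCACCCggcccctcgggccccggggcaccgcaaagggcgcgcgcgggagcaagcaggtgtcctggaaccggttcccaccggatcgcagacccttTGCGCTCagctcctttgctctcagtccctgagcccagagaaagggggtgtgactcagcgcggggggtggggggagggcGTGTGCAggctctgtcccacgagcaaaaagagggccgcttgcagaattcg
Mt1 had 1 match and Mt2 had 3 in these windows, and 21.4% of 32851 promoter windows of the same length hold at least 1 and 5.17% hold at least 2. With the next 50 bases included, Mt1 had 3 and Mt2 had 4, and 25.7% of those longer windows hold at least 1.

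In radial glia-like cells Mt1 read 359, 233, 457 and 463 CPM in WT and 194, 233, 338 and 258 CPM in het libraries. Het was lower in M1, F1 and F2 and level in M2, where the ratio was 0.998, and the groups overlapped. The log2 fold change was -0.55 (SE 0.10, adjusted p = 0.0474, edgeR). Mt2 read 256, 140, 346 and 345 CPM in WT and 140, 133, 247 and 180 CPM in het libraries, with the smallest gap again in M2 (log2 fold change -0.60, SE 0.09, adjusted p = 0.0179, edgeR). Mt1 was not called without M1 or without F1, and Mt2 was not called without F1. Cluster 1, the radial glia-like cluster of low UMI count (405 cells), has Mt1 among its leading genes. Cluster 2, the largest radial glia-like cluster (2765 cells, 0.946 times the library median UMI count), has both Mt1 and Mt2 among them. Without clusters 0 and 1, Mt2 was called (-0.59, adjusted p = 0.0426) and Mt1 was not (-0.54, adjusted p = 0.0736).

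The other calls of this class were smaller or rested on fewer molecules. Ifitm2 read 66.5, 72.7, 69.5 and 80.5 CPM in WT and 54.0, 59.0, 57.5 and 58.6 CPM in het libraries, without overlap (log2 fold change -0.34, SE 0.06, adjusted p = 0.0474, edgeR). Its call was lost without any 1 of the 4 pairs, at clustering resolution 2 and without clusters 0 and 1. Ifitm3 read 1.27, 1.38, 1.30 and 9.61 CPM in WT and 0.752, 0.515, 0.342 and 2.34 CPM in het libraries, from as few as 3 UMIs, and WT F2 stood apart. Its log2 fold change of -1.74 (SE 0.27) passed (adjusted p = 0.0179, edgeR), and without the F2 pair it was -1.31 (adjusted p = 0.257). It was also lost without M2 or F1. Ifitm3 stood at 383 CPM in the vascular cluster and 231 CPM in microglia-like cells, against 2.26 CPM in radial glia-like cells, and the part of RNA from those cells in this result was not tested. Mef2c, a transcription factor of maturing neurons, read 15.9, 15.9, 11.3 and 12.8 CPM in WT and 30.6, 22.2, 16.4 and 16.2 CPM in het libraries (log2 fold change 0.58, SE 0.10, adjusted p = 0.0480, edgeR). It was called without F2 and lost without M1, M2 or F1, at clustering resolution 2 and without clusters 0 and 1. Excitatory neuron-like cells held 203 CPM of Mef2c, with a log2 fold change there of 0.14 (SE 0.06), and the part of neuronal RNA in the glial value was not tested.

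**Figure D4:**
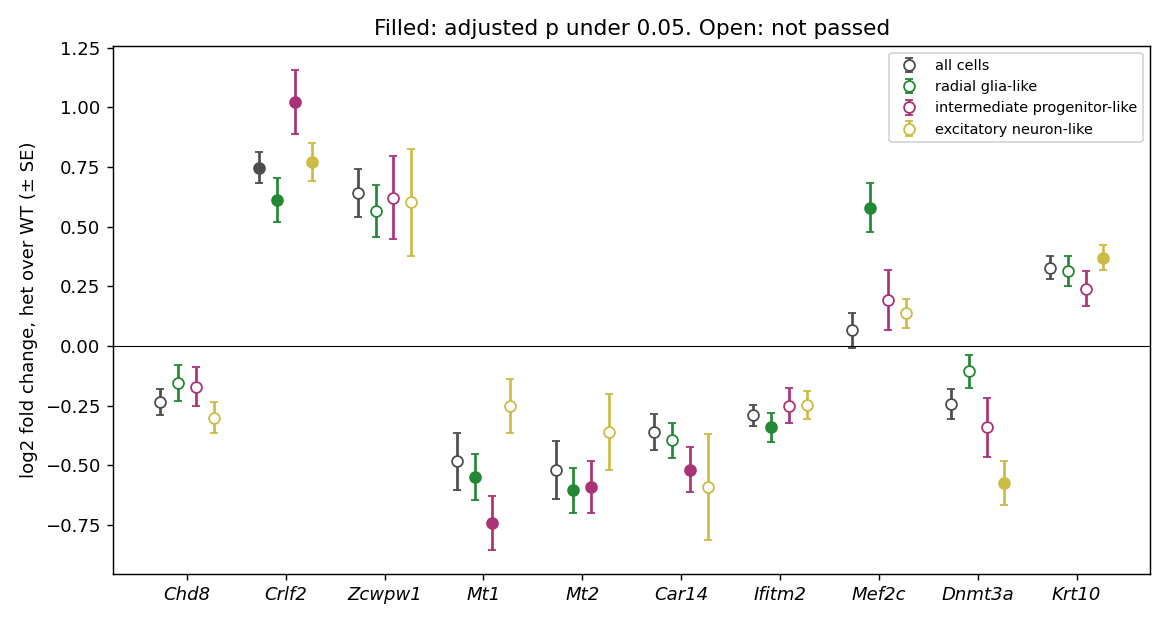
Log2 fold change of het over WT with its SE (y axis) for 10 genes (x axis) in all cells and in 3 cell classes; filled points passed an adjusted p of 0.05 and open points did not. Crlf2 lies between 0.61 and 1.02 in the 3 classes, Chd8 between -0.30 and -0.15, and Mt1 and Mt2 are filled in radial glia-like and intermediate progenitor-like cells.

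In intermediate progenitor-like cells, 17 of 11008 genes changed (0.154%), 14 higher and 3 lower. Crlf2 read 7.14, 7.34, 7.76 and 10.98 CPM in WT and 16.5, 15.8, 15.6 and 20.02 CPM in het libraries, a log2 fold change of 1.02 (SE 0.13, adjusted p = 0.00203, edgeR). No library of either group reached the other, and the het libraries stood at 1.82 to 2.32 times their partners. Without the M1 pair the adjusted p was 0.0641 and no gene of the class was called. DESeq2 called 1 gene, Mt1 (adjusted p = 0.0197), and gave Crlf2 an adjusted p of 0.0515. Whether Crlf2 changed by different amounts in the classes was not tested. The 3 genes that fell were Mt1 (-0.74, SE 0.11, adjusted p = 0.00758), Mt2 (-0.59, SE 0.11, adjusted p = 0.0282) and Car14 (-0.52, SE 0.09, adjusted p = 0.0269), by edgeR's quasi-likelihood test. Mt1 read 65.8, 44.4, 57.2 and 60.8 CPM in WT and 28.1, 39.2, 34.9 and 34.4 CPM in het libraries, without overlap. Radial glia-like cells held 316 CPM of Mt1, and the part of their RNA in this result was not tested. Car14 read 37.9, 50.4, 28.7 and 34.2 CPM in WT and 29.8, 33.8, 17.2 and 24.6 CPM in het libraries, lower in 4 of 4 pairs. Mt1 was also lost without F2, Car14 without M2 or F2, and Mt2 without F1 or F2. All 3 were lost when cells were clustered at resolution 0.5 or 2 in place of 1.

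Besides Crlf2, 13 genes made up the higher side. They include Cdc45 and Rfc4, which act at the replication fork, Psrc1, Tacc3, Pmf1 and Cenpb, which act at the spindle, kinetochore or centromere, the anaphase-promoting complex subunits Anapc11 and Anapc15, and the chromatin protein Hmgb2. Alyref exports mRNA, Hnrnpd binds AU-rich mRNA, Rrp1 takes part in ribosome assembly and Abhd17a removes palmitate from proteins. Cdc45 read 44.7, 41.3, 39.8 and 50.6 CPM in WT and 64.1, 58.5, 55.6 and 59.9 CPM in het libraries (log2 fold change 0.42, SE 0.08, adjusted p = 0.0269, edgeR). Psrc1 read 56.8, 64.9, 54.6 and 44.8 CPM in WT and 81.4, 74.6, 70.9 and 89.9 CPM in het libraries (0.53, SE 0.10, adjusted p = 0.0269, edgeR), also without overlap. Alyref read 75.1, 86.7, 136 and 156 CPM in WT and 103, 98.6, 197 and 201 CPM in het libraries (0.38, SE 0.06, adjusted p = 0.0115, edgeR). The female pairs lay above the male pairs for Alyref in both genotypes, and the step from WT to het lay on top of that. Anapc11 starts at 120598421 on the plus strand of chromosome 11, just past the start of Alyref on the minus strand at 120598365, and its log2 fold change was 0.30 (SE 0.05, adjusted p = 0.0269, edgeR). The other 9 genes on this side had log2 fold changes between 0.25 for Hmgb2 and 0.63 for Cenpb. For Rrp1 the het libraries stood at 1.89 and 1.74 times their partners in M1 and M2. In F1 and F2 they stood at 1.03 and 1.17 times. Besides the M1 pair, F2 ended the call of Alyref and Psrc1 when left out, and M2 and F2 each that of Cdc45 and Anapc11. Cenpb was lost without any 1 of the 4 pairs, and Hnrnpd without M1 or M2. Pmf1, Rfc4, Tacc3, Anapc15, Abhd17a, Hmgb2 and Rrp1 were each lost without M1, M2 or F2. Clustering at resolution 2 ended the calls of Pmf1, Rfc4, Abhd17a, Hmgb2 and Rrp1, and resolution 0.5 those of Abhd17a and Rrp1. Ufd1 overlaps Cdc45 on the opposite strand.

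Among whole cell cycle lists, few members passed alone. Of 30 G1/S and replication genes, 19 were higher at an unadjusted p under 0.05, against 5.81% of all genes in this class as higher and 5.56% as lower, none was lower, and Cdc45 was called. The median log2 fold change was 0.20. Of 30 G2/M genes, 17 were higher and none lower, and Tacc3 was called (median 0.17). Summed G2/M levels were 3621, 3705, 3967 and 3902 CPM in WT and 4446, 4007, 4282 and 4529 CPM in het libraries, without overlap. Pcna, the replication clamp, had 0.28 (SE 0.06, adjusted p = 0.0749, edgeR), Rrm2, which makes deoxynucleotides, had 0.27 (SE 0.06, adjusted p = 0.0758), and Aurkb, a mitotic kinase, had 0.29 (SE 0.07, adjusted p = 0.0761).

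The share of cycling cells is given beside these lists. Cluster 17, led by mitotic genes such as Kifc1, Cenpe and Tpx2, held 22.3%, 21.5%, 26.7% and 26.0% of intermediate progenitor-like cells in WT M1, M2, F1 and F2, and 27.6%, 27.8%, 35.1% and 31.5% in the het libraries. The share was higher in het in 4 of 4 pairs and the groups did not overlap. It is given as a description with no test, since it was chosen after its values were seen and the cluster is defined by the genes at issue. Without cluster 17, 1 of 26 tested G2/M genes was higher and 1 lower at an unadjusted p under 0.05, with a median of -0.07, and 6 of 29 G1/S genes were higher (median 0.11). Of all genes tested there, 3.76% were higher and 3.63% lower. Summed G2/M levels without the cluster were 260.0, 361, 336 and 358 CPM in WT and 264, 319, 393 and 359 CPM in het libraries. Summed G1/S levels there were 1512, 1724, 1596 and 1751 CPM in WT libraries. In the het libraries they were 2212, 1519, 1826 and 1740 CPM, higher in 2 of 4 pairs. Inside cluster 17 the G2/M list had a median of -0.04, with none higher and 3 lower at that threshold, and the G1/S list had 0.17, with 12 of 30 higher. Of all genes tested in the cluster, 4.02% were higher and 3.82% lower. Of the 17 genes called in the class, 4 were called without the cluster, Crlf2 (0.99), Mt1 (-0.61), Rrp1 (0.49) and Alyref (0.41). Of the 13 others, Cenpb (0.57), Abhd17a (0.33), Anapc15 (0.32), Car14 (-0.50) and Mt2 (-0.50) had estimates near those of the whole class, while Psrc1 (0.25), Cdc45 (0.26), Pmf1 (0.21) and Hmgb2 (0.08) had lower ones. Tacc3 had 0.32 (SE 0.18) without the cluster and 0.07 (SE 0.07) inside it. Fewer cells and genes enter that fit. In cluster 17 alone 9 genes were called, 3 higher, Crlf2 (1.00), Rrp1 (0.51) and Hnrnpd (0.36), and 6 lower, among them Mt1 (-0.96) and Sfxn1 (-0.53), a mitochondrial serine carrier. In radial glia-like cells the G2/M list lay the other way, with 6 of 30 genes lower, none higher and a median of -0.06, while 5 of 30 G1/S genes were higher (median 0.04), against 4.83% of all genes as higher and 5.13% as lower.

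**Figure D5:**
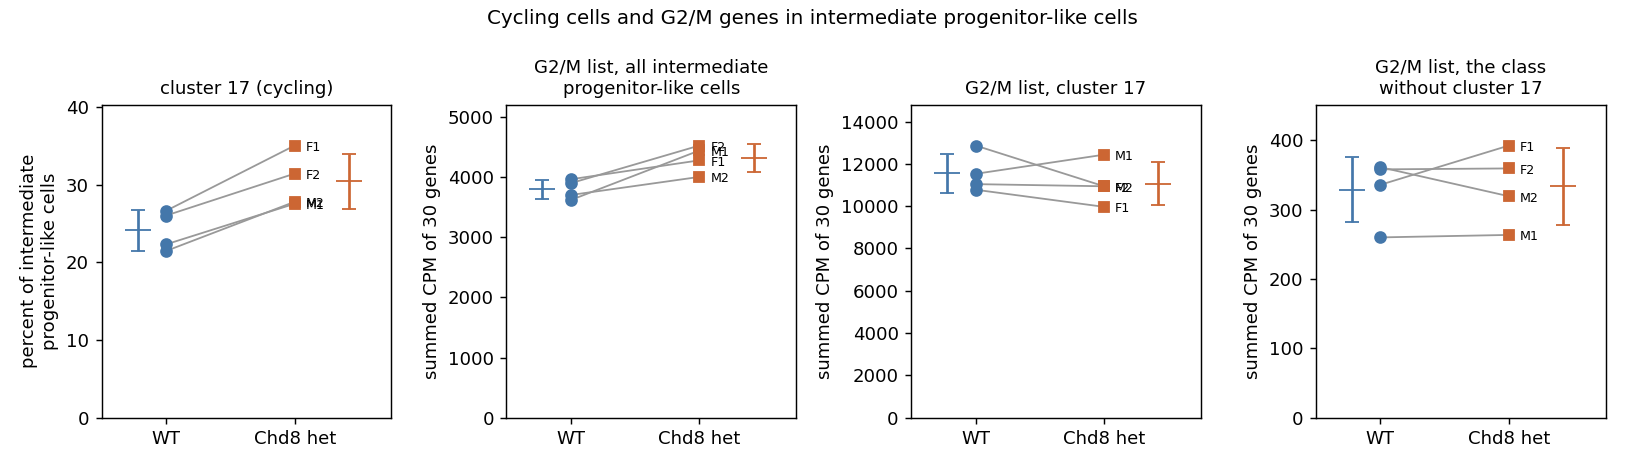
Share of cluster 17 in intermediate progenitor-like cells (left, percent) and summed CPM of 30 G2/M genes in the whole class, in cluster 17 and in the class without it (y axes from 0), in WT (circles) and het libraries (squares), with pair lines, means and SD. The share and the level in the whole class are higher in het in 4 of 4 pairs, whereas the level inside cluster 17 is higher in het in 1 of 4 pairs and the level without it in 3 of 4.

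In excitatory neuron-like cells, 6 of 12732 genes changed (0.0471%), 5 higher, of which 1 is a predicted gene, and 1 lower. Crlf2 read 9.72, 9.20, 11.8 and 14.2 CPM in WT and 18.3, 16.3, 19.9 and 22.4 CPM in het libraries (log2 fold change 0.77, SE 0.08, adjusted p = 0.00183, edgeR), without overlap. It was called without each pair in turn and by DESeq2, which called 3 genes of the class. Dnmt3a, a DNA methyltransferase that sets new methylation in neurons, was the gene that fell. It read 16.3, 16.6, 12.3 and 15.5 CPM in WT and 10.7, 9.54, 10.8 and 11.1 CPM in het libraries, without overlap (log2 fold change -0.57, SE 0.09, adjusted p = 0.0446, edgeR). Dnmt3aos overlaps it on the opposite strand, and its call was lost with DESeq2 and without M1, M2 or F2. Krt10 (0.37, SE 0.05, adjusted p = 0.0202), Tmem106c (0.40, SE 0.06, adjusted p = 0.0210) and BC025920 (0.53, SE 0.08, adjusted p = 0.0270) made up the higher side with Crlf2 and the predicted gene, by edgeR, and each of these 3 lost its call without M1, M2 or F2. Tmem106c and BC025920 were also lost with DESeq2, and Tmem106c at clustering resolution 0.5. The predicted gene, 2900009J06Rik (0.59, adjusted p = 0.00800), was lost without M2. Chd8 was at -0.30 (SE 0.06, adjusted p = 0.191, edgeR) in this class, lower in 4 of 4 pairs, against -0.15 (SE 0.07) in radial glia-like and -0.17 (SE 0.08) in intermediate progenitor-like cells. Of 13 deep-layer neuron factors none was higher and 1 was lower (median 0.07), and of 12 upper-layer factors 2 were higher and 2 lower (median 0.05), at an unadjusted p under 0.05, against 4.81% and 4.76% of all genes. None was called.

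In interneuron-like cells, none of 7694 genes passed (0%), 366 had an unadjusted p under 0.05, and DESeq2 also called none. With 39 such cells in het F1 this class was the shallowest. Crlf2 was too low there to be tested, with 81 UMIs over all 8 libraries, and Chd8 had 0.16 (SE 0.16, adjusted p = 1.00, edgeR). Unlike in the other classes, Chd8 was not lower in het in any pair here, on 16 to 77 UMIs per library. M1 was level, at 51.7 CPM in WT and 51.8 CPM in het, and the ratios were 1.47 in M2, 1.10 in F1 and 1.07 in F2.

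Crlf2 UMIs were spread over the neural classes. The gene stood at 17.6 CPM in radial glia-like, 13.0 in intermediate progenitor-like, 14.9 in excitatory neuron-like and 12.3 in interneuron-like cells, both genotypes together. It stood at 28.1 CPM from 65 UMIs in the vascular cluster, at 52.9 CPM from 14 UMIs in microglia-like cells and at 1.64 CPM from 2 UMIs in erythroid-like cells. Zcwpw1 was more unequal, with 13.8 CPM in radial glia-like and 1.35 CPM in excitatory neuron-like cells, and Car14 stood at 39.8 and 1.45 CPM. These levels compare 1 gene across classes and are descriptions, with no test.

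To see whether E14.5 stands apart, the genotype effect at this stage was set against its mean at E12.5, E16.0 and E17.5 in a fit of all 32 libraries with 16 pairs. None of 15997 genes passed (0%), 598 had an unadjusted p under 0.05, and DESeq2 called 1. The lowest adjusted p belonged to Col3a1 (-2.43 as a difference of log2 fold changes, SE 0.38, adjusted p = 0.0595, edgeR's quasi-likelihood test). Lum, another fibroblast gene, came next at -2.30 (SE 0.50, adjusted p = 1). For Crlf2 the difference was 0.08 (SE 0.08, adjusted p = 1), for Zcwpw1 it was -0.14 (SE 0.16, adjusted p = 1), and for Car14 it was 0.34 (SE 0.11, adjusted p = 1). A p that misses the threshold does not show that the stages are alike.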

How the data were processed

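The authors deposited, for each library, whole-number UMI counts per gene and barcode, not normalised; the submitters' processing notes name STAR 2.7.9a, STARsolo, Cell Ranger and build mm10, and give no strand setting. The members and the gene lists were chosen with earlier results of these data known. Barcodes with at least 1000 UMIs and 500 genes were kept, and none in the E14.5 libraries exceeded 10% mitochondrial UMIs. Some het libraries of E16.0 and E17.5 held barcodes above that limit. Sums per library were tested with edgeR 4.0.16 in R 4.3.3 (quasi-likelihood, TMM, filterByExpr, pair as block, Benjamini-Hochberg 0.05), which was tested on simulated data. Fold changes are log2 values. Each SE given with an edgeR value is the magnitude of the log2 fold change divided by the square root of the F statistic. Library deviations from genotype means correlated within pairs (0.667 in M1, 0.527 in M2, 0.693 in F1, 0.573 in F2), each above any other combination. The series' design text states litter and sex matching. Cells of E14.5 were clustered with scanpy 1.11.5 and igraph 0.11.9 (2000 genes, 30 components, 20 neighbours, Leiden resolution 1). Named genes are Chd8, Crlf2, Zcwpw1, Car14, Gsta4, called genes (up to 15 per direction), a fill to 12 per direction by lowest p at 5 CPM or more with 1 sign in all pairs, up to 5 called genes per class and direction, and in each list the called members and the 2 to 4 of lowest p; other members beyond these were chosen after their values were seen. Positions and overlaps come from GENCODE M21, which held 99.8% of the identifiers. The 2 members of a pair share a litter, so n = 4 pairs. The library titles do not say whether different pairs come from different litters. Depth limits genes under about 5 CPM.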

Additional observations from a re-analysis of the deposited data

Results flagged for a closer look

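In groups of 4 libraries, a library was singled out when its gap to the nearest other took more of the whole range than the 95% critical value of Dixon allows, which chance gives in about 1 of 20 groups. Among 120 groups examined, 5 such libraries were found. Zfp37 across all cells was lowest in het F2, at 7.75 CPM against 11.5 to 11.7 CPM in the other het libraries. Ifitm3 in radial glia-like cells was highest in WT F2, at 9.61 CPM against 1.27 to 1.38 CPM. Crlf2 in intermediate progenitor-like cells was highest among WT libraries in WT F2, at 10.98 CPM against 7.14 to 7.76 CPM, and this value still lay below each het library. Hmgb2 in intermediate progenitor-like cells was highest among het libraries in het F1, at 1470 CPM against 888 to 909 CPM, and WT F1 was the highest WT library as well. Abhd17a in the same class was highest in het F2, at 83.6 CPM against 66.7 to 69.4 CPM.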

How the results depend on the processing

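Counts of called genes depended on the model. Of 26 genes named across all cells, 25 had a value in each of the 11 alternatives and Col3a1 in 10, and none changed direction. Most of these genes were picked from the same libraries, as calls or for low p with the same sign in all pairs. Their kept direction was largely set by that choice, so it does not measure how stable the estimates are. Without the replicate block, which leaves the paired litters out of the model, no gene was called in any comparison, where the block gave 2 across all cells, 6 in radial glia-like, 17 in intermediate progenitor-like and 6 in excitatory neuron-like cells; Crlf2 then had 0.74 and Col3a1 -2.48 (adjusted p = 1 for both). DESeq2 with the replicate block called 20, 0, 1 and 3 genes in these comparisons and 1 in the comparison of stages. Without a filter on low counts the numbers were 55, 168, 139 and 169, with 9 in interneuron-like cells and 4 between stages. With neural classes only, 1 gene was called. Leaving out 1 pair at a time gave 4 to 11 across all cells, 2 to 22 in radial glia-like, 0 (without M1) to 30 (without F1) in intermediate progenitor-like and 1 to 9 in excitatory neuron-like cells. For intermediate progenitor-like cells, Leiden resolution 2 gave 9 calls, all higher, and resolution 0.5 gave 25, 23 higher and 2 lower, of which 12 were among the 17. Chosen after seeing the data, it was 4 without the cycling cluster and 9 in that cluster alone. The cause of these differences was not tested. RLE size factors, the 32-library fit and the mitochondrial limit, which removed no barcode, left 2 genes called across all cells, although the 32-library fit had 792 genes at an unadjusted p under 0.05 where the 8 libraries gave 1472. Mean differences in class shares kept their direction in the alternatives run; with 3 or 4 pairs the sign-flip test and the tests without a pair cannot pass. Between 267 and 793 UMIs per library support Crlf2, but 7 to 160 support Col3a1.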
